A study of Mus musculus with 2 samples.

Results

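The haemoglobin genes and Alas2 were examined in SPARC-seq data, in which RNA and accessible chromatin are read from the same barcodes, of brain tissue at E18.5 of mouse development. The 8 genes were taken by name from the 32285 genes of the count matrix by a rule that uses no measured value. They are the alpha-type genes Hba-a1 (ENSMUSG00000069919), Hba-a2 (ENSMUSG00000069917) and Hba-x (ENSMUSG00000055609), the beta-type genes Hbb-bs (ENSMUSG00000052305), Hbb-bt (ENSMUSG00000073940), Hbb-y (ENSMUSG00000052187) and Hbb-bh1 (ENSMUSG00000052217), and Alas2 (ENSMUSG00000025270). The tissue carried the homozygous CTCF-R567W mutation, made by CRISPR/Cas9 editing, on a C57BL/6 background, and 1 RNA library and 1 accessibility library were analysed. No second genotype entered, so no value below can be assigned to the mutation. The labels do not say how many embryos the tissue came from.

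Haemoglobin is a tetramer of alpha-type and beta-type globin chains, each holding a haem group. In the mouse, primitive red cells from the yolk sac make the embryonic chains encoded by Hba-x, Hbb-y and Hbb-bh1, and definitive red cells from the fetal liver make the adult chains encoded by Hba-a1, Hba-a2, Hbb-bs and Hbb-bt. Hbb-bs and Hbb-bt are the adult beta-type pair of the haplotype that C57BL/6 mice carry. Alas2 encodes the erythroid form of the first enzyme of haem synthesis, while Alas1 encodes the form found in most tissues. Mammalian red cell precursors expel their nucleus as they mature, and the resulting reticulocytes still hold globin mRNA.

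The RNA matrix held 1993 barcodes, of which 1992 passed the limits of 500 to 6000 genes and at most 20% mitochondrial UMIs (unique molecular identifiers, each standing for 1 captured RNA molecule). Each barcode joins a first and a second segment of 8 bases and is called a spot here, since it can hold several cells. The kept spots held 907 to 12442 UMIs (median 4157), 8711132 in all, and 46993860 chromatin fragments. The neuron marker list reached 10165 CPM (counts per 1000000 UMIs of the kept spots), and skeletal muscle (5850 CPM), bone and connective tissue (1544 CPM) and pituitary (192 CPM) lists were measured beside it, so the libraries labelled brain also held RNA of markers of other tissues. With 1 library per assay no test between samples was possible. Intervals given here are 95% intervals, exact except for differences between shares, and cover counting error only. In a spot, fewer red cells and less globin RNA per cell cannot be told apart.

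The alpha-type genes lie on chromosome 11, the beta-type genes on chromosome 7 and Alas2 on chromosome X. The sequences immediately upstream of the RefSeq start are shown because accessibility was measured around the starts of these genes. They are 130 bases each, 5′ to 3′ on the gene's strand, from RefSeq on GRCm38.p6. Capitals mark 4 motifs: the GATA words AGATAA or AGATAG or TGATAA or TGATAG, the motif CCNCNCCC and the motif CCAAT, searched on both strands, and TATAA on the gene's strand 45 to 16 bases upstream of the start. Adjacent or overlapping matches run together.
Hba-a1 (chr11:32283542-32283671, plus strand): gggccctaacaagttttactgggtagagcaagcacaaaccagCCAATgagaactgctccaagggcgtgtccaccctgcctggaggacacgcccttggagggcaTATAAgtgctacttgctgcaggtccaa
Hba-a2 (chr11:32296362-32296491, plus strand): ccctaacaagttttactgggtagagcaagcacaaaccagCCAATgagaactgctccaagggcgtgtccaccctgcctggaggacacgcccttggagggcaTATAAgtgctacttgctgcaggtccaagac
Hba-x (chr11:32276470-32276599, plus strand): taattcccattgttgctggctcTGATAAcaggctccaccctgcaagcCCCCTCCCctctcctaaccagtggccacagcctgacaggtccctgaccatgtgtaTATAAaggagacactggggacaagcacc
Hbb-bs (chr7:103827929-103828058, minus strand): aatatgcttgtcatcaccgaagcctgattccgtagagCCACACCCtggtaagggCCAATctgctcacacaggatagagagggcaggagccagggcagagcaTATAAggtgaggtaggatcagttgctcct
Hbb-bt (chr7:103813924-103814053, minus strand): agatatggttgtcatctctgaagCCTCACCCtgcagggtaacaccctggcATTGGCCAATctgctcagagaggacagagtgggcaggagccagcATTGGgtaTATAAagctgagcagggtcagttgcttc
Hbb-y (chr7:103853208-103853337, minus strand): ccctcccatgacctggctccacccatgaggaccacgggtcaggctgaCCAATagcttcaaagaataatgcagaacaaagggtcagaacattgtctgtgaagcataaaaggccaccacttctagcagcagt
Alas2 (chrX:150547287-150547416, plus strand): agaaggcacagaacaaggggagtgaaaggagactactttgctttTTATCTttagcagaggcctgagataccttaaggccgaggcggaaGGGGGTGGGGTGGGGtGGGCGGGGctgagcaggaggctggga
The table held promoters for 7 of the 8 genes, all but Hbb-bh1. The Hba-a1 and Hba-a2 promoters were nearly the same sequence, with 98.8% identity over 250 bases and an identical run of 297 bases in the 300-base entry. Hbb-bs and Hbb-bt were 70% identical over the same length, and every other pair was between 40.4% and 50% identical. TATAA stood in Hba-a1, Hba-a2, Hba-x, Hbb-bs and Hbb-bt, and was found in 3.89% of all 32851 promoters. CCAAT stood in the 5 of these promoters other than Hba-x and Alas2, against 33.9% of all promoters over 250 bases. CCNCNCCC was found in Hba-x, Hbb-bs, Hbb-bt and Alas2, against 45.9%, and a GATA word in all 7 but Hbb-bt, against 26.5%. The GATA words of Hba-a1, Hba-a2, Hbb-bs and Hbb-y lie farther upstream than the bases printed. A match is a description of the letters and not a measured binding site.

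The adult globin genes were among the most abundant RNAs of the library. Hba-a1 had 22335 UMIs, or 2564 CPM (95% interval 2530 to 2598), and was 7th of all genes by UMIs. Hba-a2 had 18037 UMIs, or 2071 CPM (2040 to 2101), and was 13th. Hbb-bs had 13802 UMIs, or 1584 CPM (1558 to 1611), and was 23rd. Hbb-bt had 4206 UMIs, or 483 CPM (468 to 498), and was 246th. The intervals of these neighbours did not overlap, so the order of the 4 genes exceeded the counting error. Together the 8 genes made up 0.674% of all UMIs (0.669 to 0.68).

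**Figure D1:**
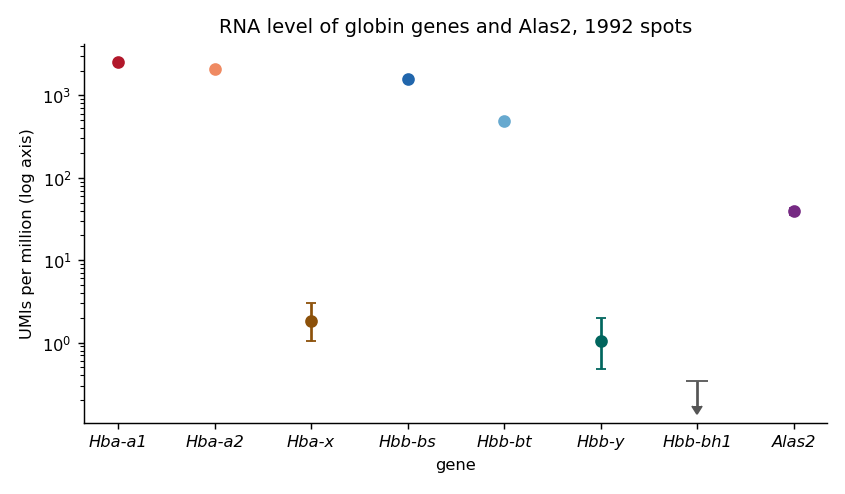
RNA level of each gene in CPM on a log axis, summed over 1992 spots of the 1 RNA library. Points are values and bars are 95% Poisson intervals, narrower than the point for the adult globins, and the arrow for Hbb-bh1 starts at 0.344 CPM, the 3 counts that a count of 0 allows. The 4 adult globins lie between 483 and 2564 CPM, Alas2 at 39.1 CPM, and Hba-x and Hbb-y at 1.84 and 1.03 CPM.

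Per kb of exon, which takes out gene length, Hba-a1 stood at 3158 CPM per kb and Hba-a2 at 3104, closer than their UMI totals. Hbb-bs stood at 2063 CPM per kb and Hbb-bt at 687. The 2 adult alpha genes have exon lengths of 812 and 667 bases in the annotation. The labels do not say whether reads come from 1 end of each RNA, in which case length would not scale the counts, and the per-gene scale was kept for every ratio below unless stated.

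The split of UMIs between near copies is uncertain. Of the 50-base words of the Hba-a1 transcript, 67.5% also occurred in Hba-a2, and 86.9% of those of Hba-a2 occurred in Hba-a1. For the last 200 bases these shares were 66.9% and 56.3%. Hbb-bs shared 65.8% of its words with Hbb-bt, but none in its last 200 bases. No word of Hba-x, Hbb-y or Hbb-bh1 was found in the near relative it was compared with, namely Hba-a1 for Hba-x, and each other for Hbb-y and Hbb-bh1. Summed alpha-type and beta-type counts do not depend on how reads were divided within a pair. They would still be lowered if reads that match both genes were left out. How far this bears on the alpha-type against the beta-type sum was not tested.

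The embryonic globins were at the edge of detection. Hba-x, the embryonic alpha-type chain (zeta), had 16 UMIs, or 1.84 CPM (1.05 to 2.98), in 16 different spots. Hbb-y, an embryonic beta-type chain, had 9 UMIs, or 1.03 CPM (0.472 to 1.96), in 9 spots. Their intervals overlap, so the order of the 2 genes is not shown. Hbb-bh1, the other embryonic beta-type chain, had 0 UMIs. The limit used for a count of 0 was 3 counts, which allows up to 0.344 CPM, or 0.0167% of beta-type UMIs.

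The adult genes therefore gave nearly all globin RNA of both types. Of 18017 beta-type UMIs, 18008 came from Hbb-bs and Hbb-bt, an adult share of 99.95% (99.91 to 99.98). Of 40388 alpha-type UMIs, 40372 came from Hba-a1 and Hba-a2, an adult share of 99.96% (99.94 to 99.98). The embryonic remainders were 0.05% (0.0228 to 0.0948) for the beta type and 0.0396% (0.0226 to 0.0643) for the alpha type, and their intervals overlap. Per kb of exon the adult shares were 99.94% and 99.97%.

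Alpha-type UMIs outnumbered beta-type UMIs by 2.24 (2.2 to 2.28), and by 2.28 per kb of exon. Within the adult alpha pair, Hba-a1 over Hba-a2 was 1.24 (1.21 to 1.26), with the shared words above in view. Within the adult beta pair, Hbb-bs over Hbb-bt was 3.28 (3.17 to 3.4).

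Alas2 was far lower than the adult globins. It had 341 UMIs, or 39.1 CPM (35.1 to 43.5), and 16.3 CPM per kb of exon, and was 5590th by UMIs. There were 5.84 Alas2 UMIs (5.24 to 6.49) for each 1000 globin UMIs. Alas1, the form of the enzyme found in most tissues, had 139 UMIs, or 16 CPM (13.4 to 18.8), so the erythroid form had more UMIs than the widespread one.

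The other genes of haem synthesis were all detected. The list held 8 genes and 1180 UMIs, from Uros with 78 to Ppox with 236, and Ppox and Fech (220 UMIs), the enzymes of the last steps, were its most abundant members. Each of the 8 had fewer UMIs than Alas2. Of the iron and haem transport list, the ferritin subunit genes Ftl1 (14002 UMIs) and Fth1 (9878 UMIs) had by far the most, and Tfrc, the transferrin receptor that takes up iron, had 140.

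Genes of the red cell membrane and cytosol were mostly near 0. Of 17 genes in the matrix, 11 had fewer than 20 UMIs and Cldn13 had 0. Many genes of the matrix were as low: Hba-x with 16 UMIs was 16231st of 32285 genes by UMIs. At least 100 UMIs were held by 4 of the 17 genes, and by 10692 of the 32285. Slc4a1 (the anion exchanger band 3) had 48 UMIs. Ank1 (551 UMIs) and Sptb (292 UMIs), which encode ankyrin and beta-spectrin of the membrane skeleton, had the most, and both are also expressed outside red cells. Among 11 erythroid regulators, Gata1 had 5 UMIs, Klf1 had 7, Epor (the erythropoietin receptor) had 2 and Gfi1b had 1, while Zfpm1 had 144, Lmo2 had 86, Tal1 had 81, Myb had 53 and Nfe2 had 11. Bcl11a (2374 UMIs) and Sox6 (1124 UMIs), both known for silencing embryonic globin genes in red cells, were the most abundant of that list, and neurons express both.

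The remaining globin-fold genes were low. Hbb-bh2 had 0 UMIs, Hbq1a had 1 and Hbq1b had 3. Cygb (cytoglobin) had 318, Mb (the oxygen store of muscle) 47 and Ngb (neuroglobin) 45. Other blood lists were also low: the platelet list summed to 57.2 CPM, led by Pf4 (255 UMIs) and Itga2b (160 UMIs), with Ppbp at 0. The granulocyte list summed to 12.4 CPM, led by Ltf (67 UMIs) and Lcn2 (21 UMIs), with Elane at 0.

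Globin RNA reached every spot. Each of the 1992 spots held at least 3 UMIs of the 8 genes, with a median of 23, and the highest spot held 302. At least 1 alpha-type UMI was found in all but 2 spots and at least 1 beta-type UMI in all but 11. Hba-a1 was seen in 1982 spots (99.5%), with a median of 8 UMIs and a highest of 143. Hba-a2 was seen in 1969 spots with a median of 7 and a highest of 99. Hbb-bs was seen in 1964 spots with a median of 6 and a highest of 54. Hbb-bt was seen in 1577 spots (79.2%), with a median of 2 and a highest of 23. Alas2 was seen in 300 spots (15.1%), 36 of which held more than 1 UMI and none more than 3. Only 10 genes were found in at least as many spots as Hba-a1, itself included.

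These shares depend on depth. Thinned to 2000 UMIs, which 1831 spots reached, the expected share of spots with a UMI was 96.8% for Hba-a1, 94.6% for Hba-a2, 92.2% for Hbb-bs, 57.3% for Hbb-bt and 7.51% for Alas2. It was 0.37% for Hba-x and 0.229% for Hbb-y. Spots gave no cell type that should lack globin RNA, so a background share was not available, and globin UMIs from RNA outside cells were not told apart from those of cells in the spot.

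Although present everywhere, globin RNA was uneven. The summed level ran from 1019 to 68176 CPM over spots, with a median of 5432, and the central 90% of spots lay between 2783 and 15689 CPM. Unevenness was measured as the squared coefficient of variation beyond that of random counting at the depth of each spot, in which 0 means an even gene. It was 0.649 for Hba-a1, 0.565 for Hba-a2, 0.333 for Hbb-bs, 0.388 for Hbb-bt and 0.349 for Alas2, against a median of 0.0674 over 10692 genes with at least 100 UMIs. Among those genes the 5 stood at the 92.8, 91, 82.5, 85.2 and 83.5 percentiles. Low counts scatter widely on this measure, so the adult globins were also set among the 266 genes with at least 4000 UMIs, where the median was 0.0285. There 7 genes were more uneven than Hba-a1, 10 than Hba-a2, 13 than Hbb-bt and 15 than Hbb-bs.

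**Figure D2:**
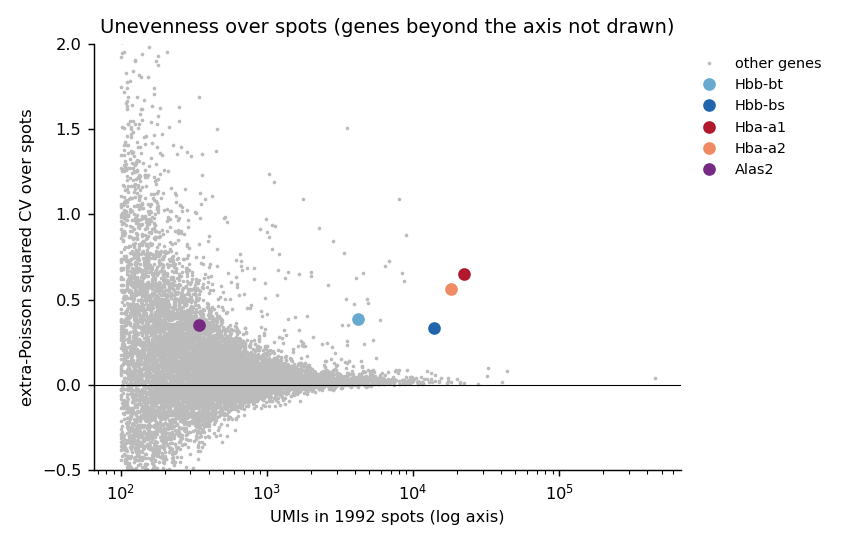
Extra-Poisson squared coefficient of variation over 1992 spots against UMIs per gene (log axis) for genes with at least 100 UMIs. Grey points are the other genes, and points above 2 or below -0.5 are not drawn. The 4 adult globins lie between 0.333 and 0.649, above most genes with as many UMIs, while Alas2 at 0.349 lies within the scatter of genes with few UMIs.

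A few spots weighed heavily in this measure. Without the 20 spots with most UMIs of the 8 genes, the unevenness of their sum fell from 0.507 to 0.283.

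The adult globins rose and fell together from spot to spot. Over 1992 spots, Pearson residuals correlated at r = 0.852 between Hba-a1 and Hba-a2, whose reads cannot be fully separated. Across the types, r was 0.794 between Hba-a1 and Hbb-bs, and 0.764 between Hba-a2 and Hbb-bs. Pairs with the sparser Hbb-bt gave 0.561 to 0.58. Pairs with Alas2 gave 0.0699 to 0.138, weak values in sparse counts. All spots share 1 library, and residuals were taken against each spot's depth.

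No other gene had a high r with the globins. Among 7926 genes with at least 200 UMIs, the 5 whose residuals were most like those of the summed 8 genes were Ptgds (r = 0.261), Col4a1 (0.169), Hist1h2ap (0.162), Sparc (0.147) and Col1a1 (0.135). Ptgds encodes a prostaglandin synthase abundant in the meninges, Col4a1 a basement membrane collagen, Sparc a matrix protein of vessels and bone, and Col1a1 the main collagen of bone and skin. Each of these values lay below every r among the adult globins. Sparse counts lower r, so a gene with few UMIs could follow the globins and still have a low r.

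The balance of alpha to beta was not constant over spots. Spots were ordered by globin level and divided into 10 groups of 199 or 200, a description added after the data had been seen. The group with the lowest level, 2659 CPM, had an alpha-type share of globin UMIs of 65.1% (63.1 to 67.1). The group with the highest level, 19024 CPM, had 72.6% (71.9 to 73.3). The 8 groups between them ran from 65% to 69.8%, with a broad rise. The level that orders the groups includes the alpha-type UMIs, and how far the rise follows from that ordering was not tested. The difference between the highest and the lowest group was 7.49 percentage points (5.42 to 9.56). It was 7.04 without the 20 spots with most UMIs of the 8 genes, 7.32 without the 3 second segments highest in globin RNA, 8.09 within the 498 deepest spots and 4.59 (-0.808 to 9.99) within the 498 shallowest, where the interval included 0.

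The balance within each adult pair was also compared. The Hba-a1 share of adult alpha UMIs was 53.4% (50.8 to 55.9) in the lowest group and 56.4% (55.5 to 57.4) in the highest, a difference of 3.06 percentage points (0.375 to 5.75). The Hbb-bs share of adult beta UMIs was 78.2% (75.2 to 81) in the lowest and 76.5% (75.2 to 77.8) in the highest, a difference of -1.67 percentage points (-4.8 to 1.46) that includes 0.

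The level of Alas2 was 27.6 CPM (17.7 to 41) in the group lowest in globin RNA and 51.9 CPM (37.3 to 70.4) in the highest. These levels rested on 24 and 41 UMIs, and their ratio was 1.88 (1.11 to 3.26). Alas2 UMIs per 1000 globin UMIs were 10.4 in the lowest group and 2.73 in the highest. The globin UMIs that this scale divides by also order the groups. In the 300 spots with an Alas2 UMI the globin level was 7278 CPM, against 6583 CPM in the 1692 without, and the median depth was 4900 against 4034 UMIs.

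**Figure D3:**
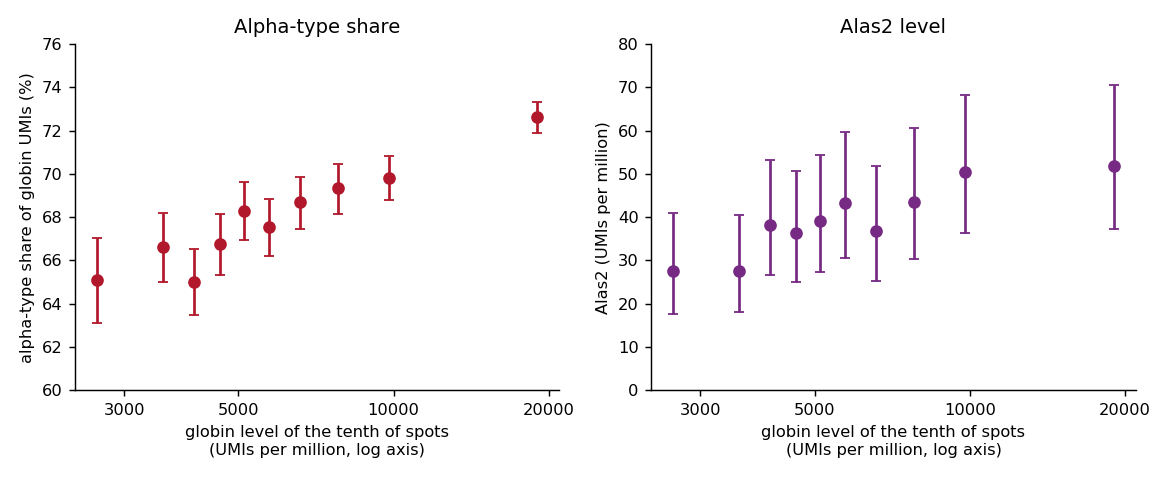
Alpha-type share of globin UMIs in percent (left) and Alas2 level in CPM (right) against the globin level on a log axis, for 10 groups of 199 or 200 spots ordered by globin level. Points are group values and bars are exact 95% intervals for counting error. The alpha-type share rises from 65.1% to 72.6%, and the Alas2 level is 27.6 CPM in the lowest group and 51.9 CPM in the highest. The globin level that orders the groups includes the alpha-type UMIs.

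Marker lists of several other tissues differed over the same groups. From the lowest to the highest globin group, the pituitary list went from 106 to 476 CPM, a ratio of 4.5 (3.58 to 5.72), bone and connective tissue from 1041 to 1942 CPM, endothelial genes (led by Flt1 and Cldn5) from 271 to 439 CPM and mural genes (led by Vtn and Rgs5) from 187 to 298 CPM. Skeletal muscle went from 4382 to 6560 CPM. The platelet list had a ratio of 1.78 (1.22 to 2.62) and the iron and haem transport list, mostly ferritin UMIs, 1.1 (1.03 to 1.16). Neuron genes (led by Meg3 and Elavl3) went from 10865 to 9503 CPM, a ratio of 0.875 (0.848 to 0.902). Meg3 alone gave 40695 of the 88552 UMIs of the neuron list. Intervals that include 1 were found for haem synthesis at 1.02 (0.776 to 1.35), the erythroid regulators at 0.887 (0.764 to 1.03), the erythroid membrane list at 1.24 (0.97 to 1.58), microglia at 1.28 (0.992 to 1.64), granulocytes at 1.1 (0.453 to 2.68) and the other globin-fold genes at 0.979 (0.623 to 1.53). The UMIs of the erythroid regulators were mostly those of Bcl11a and Sox6, which neurons also express. The pituitary UMIs were clumped. Among second segments with at least 10 spots, the list stood at 2577, 1882 and 1803 CPM in the segments highest in it. In each of the others it stood at no more than 321 CPM. The pituitary ratio was not computed without those segments, and its interval leaves out this unevenness. The part of the listed tissues in the globin pattern was not tested.

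The spots were next summed by the segment of the barcode they share. For the 50 values of the first segment, the summed level of the 8 genes ran from 4727 to 11448 CPM, with a median of 6686. For the 46 values of the second segment with at least 10 spots, it ran from 3584 to 18157 CPM, with a median of 6375, a 5.07-fold range. The unevenness of the sum was 0.0379 over the first segment (84.5 percentile of genes) and 0.0704 over the second (74.8 percentile). Alas2, with few UMIs per segment, stood at the 89.2 percentile over the first segment (0.0519) and at the 30.8 percentile over the second (0.0127). The latter was -0.000134 in spots with at least 2000 UMIs and 0.0227 without the 20 spots with most UMIs of the 8 genes, so no order of Alas2 against the globins is read from it.

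For Hba-a1 the level ran from 1752 to 5144 CPM over the first segment and from 1274 to 7562 CPM over the second. For Hba-a2 it ran from 1219 to 3693 CPM and from 1100 to 5534 CPM. For Hbb-bs it ran from 1028 to 2293 CPM and from 919 to 3899 CPM, and for Hbb-bt from 311 to 661 CPM and from 244 to 1122 CPM. Every segment counted held all 4 adult globins, and no segment value approached 0. Alas2 ran from 0 to 78.8 CPM over the first segment and from 14.1 to 78.3 CPM over the second, on few UMIs each.

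**Figure D4:**
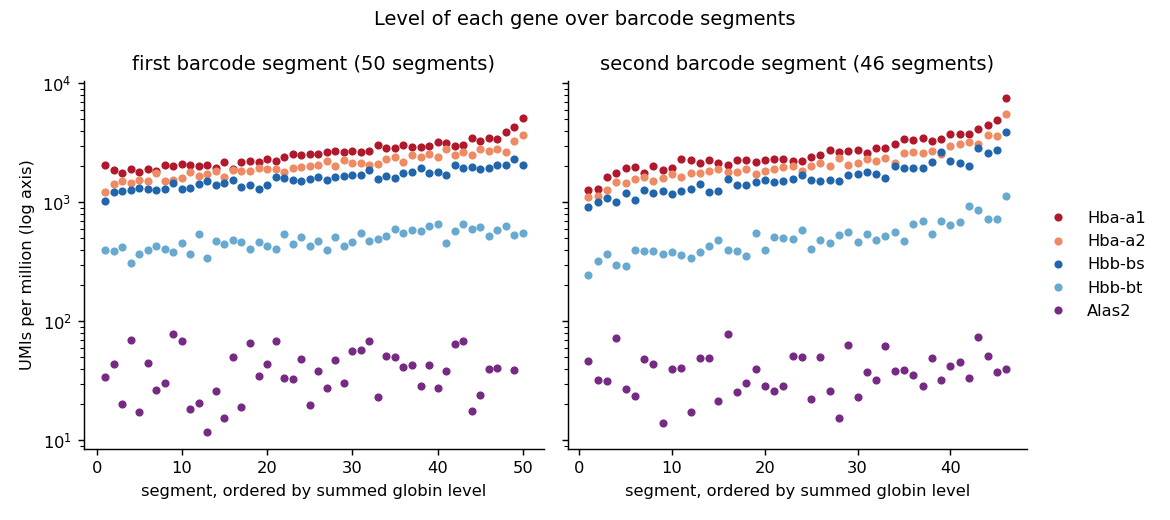
Level of the 4 adult globins and Alas2 in CPM (log axis) for each value of the first (50, left) and the second (46, right) barcode segment, ordered by summed globin level. Each point is the sum of the spots of 1 segment, and Alas2 values of 0 are not drawn. The summed globin level that sets the order runs from 3537 to 18117 CPM over the second segment, so the rise of the adult globins follows from the ordering, and Alas2 is not part of that sum.

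The highest second segment held 17 spots and reached 18117 CPM of globins. Without it the unevenness over the second segment was 0.0675 in place of 0.0704. The next in order reached 11957 and 11504 CPM, and in both the pituitary list stood at 1882 and 1803 CPM, against 177 CPM in the highest. Alpha over beta ran from 1.78 to 2.61 over the second segment (median 2.27) and from 1.87 to 3.38 over the first (median 2.23). The highest value of each belonged to the segment with the highest globin level. Alas2 per 1000 globin UMIs ran from 2.17 to 15.8 over the second segment.

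Across the 46 second segments, the summed globin level correlated with neuron genes at r = -0.386, with endothelial genes at 0.389, with bone and connective tissue at 0.537, with pituitary at 0.465, with skeletal muscle at 0.171, with the erythroid regulators at -0.129 and with Alas2 at 0.151. Across the 50 first segments the same lists gave -0.434 for neuron genes, 0.247 for endothelial genes, 0.197 for bone and connective tissue, 0.068 for pituitary, 0.313 for skeletal muscle, -0.397 for the erythroid regulators and -0.299 for Alas2. Most UMIs of the erythroid regulators came from Bcl11a and Sox6, which neurons also express. Of the 88552 UMIs of the neuron list, 40695 came from Meg3. These correlations describe segments of 1 library whose levels share a total, and the part of the other tissues was not tested.

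Globin levels were somewhat higher in shallow spots. The 498 spots with fewest UMIs outside the 8 genes had 7738 CPM of them, and the 498 with most had 6392 CPM, a ratio of 1.21 (1.18 to 1.24). The ratio was 1.22 for Hba-a1, 1.2 for Hba-a2, 1.22 for Hbb-bs and 1.18 for Hbb-bt. Each interval excluded 1, but these intervals leave out the unevenness over spots. For Alas2 the ratio was 0.978 (0.673 to 1.39). None of the 5 members with at least 100 UMIs passed 1.5-fold in either direction, where 1.97% of 10692 genes were higher and 4.63% lower by that fold. The median ratio of the 5 was 1.2, and that of all genes tested was 0.989.

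Globin levels differed little between muscle-rich segments and the rest. The 6 second segments with the highest skeletal muscle level (11517 to 16946 CPM, the next at 5954) had 7196 CPM of the 8 genes and the other segments 6649 CPM, a ratio of 1.08 (1.06 to 1.11). The ratio was 1.06 for Hba-a1, 1.1 for Hba-a2, 1.08 for Hbb-bs and 1.14 for Hbb-bt, and 1.02 (0.761 to 1.36) for Alas2. The summed ratio rested on 1 of the 6 segments, with 38 spots and 9620 CPM of globins. Without it the ratio was 0.988 (0.964 to 1.01), with Hba-a1 at 0.954, Hba-a2 at 0.995, Hbb-bs at 1.01 and Hbb-bt at 1.06. Leaving out each of the other 5 in turn gave a summed ratio of 1.08 to 1.13. None of the 5 members passed 1.5-fold, where 8.9% of genes were higher and 6.84% lower. All 7 bone and connective tissue genes tested and 3 of 6 mural genes were higher by that fold, and 4 of 10 neuron genes were lower. Also higher were 1 of 9 endothelial and 1 of 5 microglia genes, and 1 of 3 pituitary genes was lower. The mural list as a sum had a ratio of 1.07 (0.953 to 1.2). None of the 6 haem synthesis genes passed 1.5-fold. Their summed level had a ratio of 1.18 (1.02 to 1.37) over all 8 genes, with a median of 1.32 over the 6. The granulocyte list, with no gene of at least 100 UMIs, had a summed ratio of 3.55 (2.37 to 5.29) on 46 and 62 UMIs. It stood at 87.9 CPM in 1 of the 6 segments and at 9.12 to 26.2 CPM in the other 5. No segment was left out for this list. The skeletal muscle genes chose the segments and are no comparison. The globin level of the 6 segments, 5745 to 9620 CPM, lay within the range of the other 40, 3537 to 18117 CPM.

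Few chromatin fragments covered the starts of these genes. Fragments that reached into a window of 1 kb to either side of the start given in the files were counted in the same 1992 spots. Hba-a1 (start at chr11:32283511) had 23 fragments (14.6 to 34.5), Hba-a2 (chr11:32296489) had 18 (10.7 to 28.4), and Hba-x (chr11:32276400) had 49 (36.3 to 64.8). Hbb-bs (chr7:103827928) had 24 (15.4 to 35.7), Hbb-bt (chr7:103813996) had 20 (12.2 to 30.9), Hbb-y (chr7:103853216) had 22 (13.8 to 33.3) and Hbb-bh1 (chr7:103843164) had 23 (14.6 to 34.5). Alas2 (chrX:150547375) had 24 (15.4 to 35.7). By raw count only Hba-x stood apart, and its interval did not overlap those of the other 7, although it had only 16 UMIs of RNA. Raw counts do not allow for differences between chromosomes, which are given below. These starts are on mm10, and of the 7 genes with a sequence above only Hbb-bs has the same start in RefSeq.

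The adult globins Hba-a1, Hba-a2 and Hbb-bs had far fewer promoter fragments than most genes with as many UMIs, and Hbb-bh1, with 0 UMIs, was near the median of genes with none. The median was 159 fragments over 21625 protein-coding genes, 254.5 over the 100 of them with most UMIs, and 20 over the 2578 with 0 UMIs. The 8 genes stood between the 9.11 and the 24 percentile of protein-coding genes. The 3 members among the 100 genes with most UMIs were Hba-a1, Hba-a2 and Hbb-bs. Of those 100, only mt-Co1, mt-Cytb, mt-Nd1, mt-Co2 and Hist1h2ap at 0 and Ptprd at 10 had fewer fragments than Hba-a2. For the mitochondrial genes, a 0 would also arise if the fragment table held no mitochondrial fragments, which was not checked. Counted by fragment midpoint, the 500 bases after the start held 0 fragments for Hba-a1 and for Hba-a2. The other members had from 5 (Hbb-bs) to 16 (Hba-x) there. The windows of Hba-a1 and Hba-a2 share much of their sequence, and the part of this in their low counts and rank was not tested. Adult and embryonic genes with very different RNA levels, such as Hbb-bs and Hbb-bh1, had nearly the same count.

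**Figure D5:**
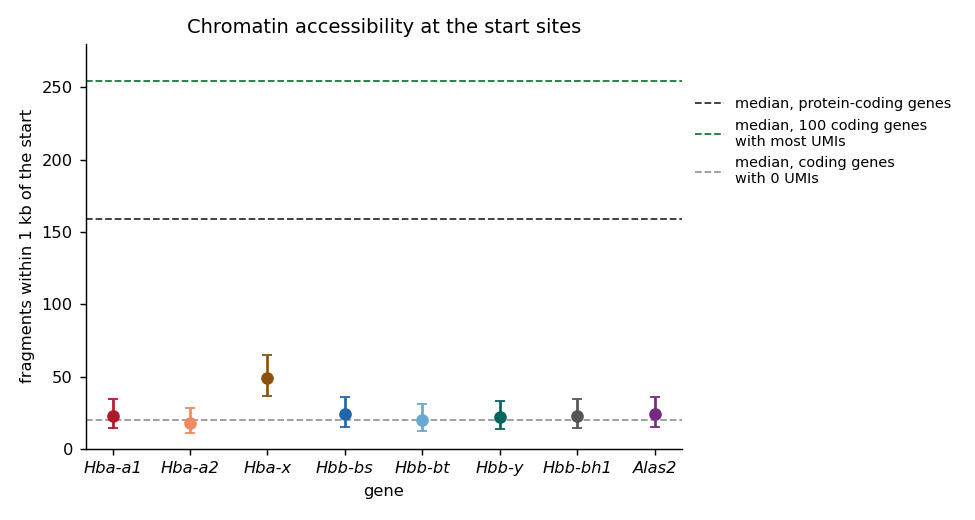
Fragments in the window 1 kb to either side of the start of each gene in 1992 spots of the 1 accessibility library, with exact 95% Poisson intervals. Dashed lines are medians over the 100 protein-coding genes with most UMIs (254.5), all protein-coding genes (159) and protein-coding genes with 0 UMIs (20). All 8 genes lie between 18 and 49 fragments, below the lines for all and for the most abundant genes.

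The counts were also set beside tiles of 2001 bases, the length of the promoter window, beyond the first 3 Mb of each chromosome. On chromosome 11 the median tile had 38 fragments and the middle 50% ran from 24 to 60, so Hba-a1 and Hba-a2 lay below that range and Hba-x within it. On chromosome 7 the median was 32, with 18 to 54, and all 4 beta-type genes lay within that range. On chromosome X the median was 16, with 9 to 25, and Alas2 lay within it. Among the tiles of its own chromosome, Alas2 stood at the 71.1 percentile and Hba-x at the 63.9 percentile. The other members stood between the 13.9 (Hba-a2) and the 35.4 percentile (Hbb-bs), so on this scale Hba-x did not stand apart from Alas2. The alpha windows share sequence, since 69.1% of the 50-base words of the Hba-a1 window also occur in that of Hba-a2. For Hbb-bs and Hbb-bt the share was 38.7%. No word was shared between the Hbb-y and Hbb-bh1 windows. The part of shared sequence in the counts was not tested.

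No deposited peak overlapped the window of any of the 8 genes. Within 100 kb of the alpha genes there were 18 peaks. The only peak between Hba-x and Hba-a2 lay at Hbq1b (chr11:32286751-32287515) with 112 cut sites, and 3 overlapped the neighbouring gene Nprl3. Among these 3, the peak at chr11:32226111-32226951, with 446 cut sites, also overlapped the gene Mpg. Introns of Nprl3 hold known alpha-globin enhancers, but whether any of the 3 peaks lies in an intron or at an enhancer was not tested. Within 100 kb of the beta genes there were 4 peaks, of which 2 lay inside the cluster, at Hbb-bh2 (chr7:103839893-103840861) with 64 cut sites and between genes (chr7:103844691-103845486) with 45. Around Alas2 there were 8, none inside the gene.

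The median over the 8 members was 23 fragments. The pituitary list was close to it, with a median of 26 and a median percentile of 13.4. The skeletal muscle list had a median of 83.5 and bone and connective tissue 87.5. Single genes with much RNA went both ways. Fth1 had 36 fragments with 9878 UMIs, Myl1 had 40 with 3376, and Ttn had 58 with 5966. In the same lists, Ftl1 had 671 fragments with 14002 UMIs and Mylpf had 1070 with 8710. The haem synthesis genes had a median of 301 promoter fragments, from 87 to 567, and a median percentile of 72.8. The neuron list had a median of 235.5. The erythroid membrane list had 61 and the erythroid regulators 107, from 28 to 1115. Alas1 had 172 fragments with 139 UMIs, while Alas2 had 24 with 341 UMIs. Of the membrane genes, Slc4a1 had 72 fragments and 48 UMIs.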

How the data were processed

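SPARC-seq libraries of RNA and accessible chromatin from 1 brain sample were analysed. The authors deposited raw counts: UMI counts per gene and cut-site counts per peak for 1993 barcodes, and a fragment table with read-pair counts for 2500 barcodes, with duplicates collapsed. Per the file headers, cellranger-arc 2.0.1 with the 2020-A reference (mm10) made them, and the submitters' processing notes also name Seurat 4.0. How the matrix barcodes were chosen is not given in the sources used here. The files were not normalised, and no other sample was used.

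A spot was kept if it held 500 to 6000 genes and no more than 20% of its UMIs were mitochondrial. CPM is UMIs per 1000000 UMIs of the kept spots. Poisson (counts), Clopper-Pearson (shares) and conditional binomial (ratios) intervals were exact at 95%, except differences of 2 shares, which used a normal approximation. With 1 library per assay no test across samples was run. Segment profiles used at least 10 spots. A gene was called past 1.5-fold, among genes with at least 100 UMIs. Promoter windows reached 1000 bases to each side of the start in the features table, with strand and biotype from GENCODE M21 for 32158 of 32285 genes. The unevenness over spots, the ratios between groups of spots and the window counts were tested on simulated data. The ratio intervals were tested there only on genes without extra unevenness. Alternatives were another spot filter or total, other group sizes, window sizes and insertions. Named were the 8 members, the 2 genes with most UMIs of each list, genes at 0 in the erythroid lists and the 5 genes most like the members over spots, and other genes were named after their values were seen. Some genes that this rule names are not reported here. The members and the 14 gene lists were chosen with earlier results of these data known. Python 3.11.15, numpy 2.4.6, scipy 1.17.1, pandas 2.3.3, pysam 0.24.0 and matplotlib 3.10.9 were used.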

Additional observations from a re-analysis of the deposited data

Results flagged for a closer look

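The 507 barcodes of the fragment table that are not in the count matrix entered none of the main comparisons, only the alternative count over all barcodes. They held 5833396 fragments, and 28 (95% interval 18.6 to 40.5) overlapped the windows of the 8 genes. They are listed because the barcodes were unused and a count of 0 would allow 3, a limit that so many fragments were bound to pass. The rate was 4.8 per 1000000 fragments, close to the 4.32 of the matrix spots, with 203 such fragments among 46993860. Hba-x had 7 of the 28 and Hbb-bt had 0.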

How the results depend on the processing

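Of 78 recomputed values of the comparisons 60 stayed within the main interval or margin and 17 moved, and of 176 single-gene values 142 stayed and 32 moved. The other 3 turned direction: without the muscle-rich segment highest in globins, the muscle ratio was 0.988 for the sum, 0.954 for Hba-a1 and 0.995 for Hba-a2; the cause was not tested. Leaving out the 20 spots with most member UMIs gave an unevenness of 0.283 over spots, 0.0534 over the second segment and 0.0267 over the first, a shallow-over-deep ratio of 1.3 and a muscle ratio of 1.13. At 2000 UMIs per spot the summed level was 6685 CPM. Without Gm42418 and mitochondrial genes in the total it was 7164 CPM, and the muscle ratio was 1.11; with 4 segments that was 1.18 and with 8 it was 1.17. Dividing the spots by depth into 3 groups in place of 4 left 121 genes higher and 290 lower by 1.5-fold. A minimum of 20 UMIs gave 1109 and 1897 there, and 2440 and 1641 for muscle. Leaving out single segments and the alpha-type share by globin level were chosen after seeing the data; the rise of that share was 4.59 points in the shallow spots. The scale per kb is given with the levels as another unit. For the promoters, windows of 500 bases or 2 kb, insertions and all barcodes moved the median percentile from 11.7 to between 11.4 and 13, Hba-x with 500 bases stood at 29.4, and Hba-a2 stood at 5.12 with 500 bases and 14.7 with 2 kb against 9.11. No paired analysis was possible because each assay has 1 library, and leaving out a replicate was not possible. Depth limits the embryonic globins (16, 9 and 0 UMIs), Alas2 by segment and every promoter count, each of which is under 50 fragments.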
